A study of Mus musculus with 12 samples.

Results

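The enolase genes of colon tumours were followed across 4 genotypes of FvB mice. All 4 genes of the set, Eno1, Eno1b, Eno2 and Eno3, are among the 21792 gene symbols of the deposited table. They were chosen by symbol, and with results of these data in view: Eno1 lies beside Mir34a, the gene of the deleted microRNA, and its near-identical copy Eno1b was known to be nearly absent where miR-34a was deleted. The tumours came from double deficient mice, which lack miR-34a and p53 in intestinal epithelial cells (IEC), from miR-34a deficient mice, from p53 deficient mice and from wt mice, with 3 libraries of total RNA for each genotype. The deletions were made in the epithelium, so the stroma of every tumour kept both genes; how the deletion was driven is not given in the sources used here, nor are the age or the number of the animals. Every group, wt included, had received azoxymethane, a carcinogen that induces colon tumours, at 10 mg/kg once a week by intraperitoneal injection for 6 weeks, and the experiment ended 16 weeks after the start.

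Enolase catalyses the step of glycolysis at which phosphoglycerate loses water and becomes phosphoenolpyruvate. The enzyme works as a dimer of subunits encoded by separate genes: Eno1 encodes the alpha subunit found in most cells, Eno2 the gamma subunit of neurons and neuroendocrine cells, and Eno3 the beta subunit of muscle. Eno1b is a retrotransposed copy of Eno1, made from a spliced and reverse transcribed Eno1 messenger RNA. miR-34a is a microRNA whose gene is a direct transcriptional target of p53.

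Eno1 (ENSMUSG00000063524) lies on chromosome 4 of GRCm38, chr4:150236721-150248879, plus strand, 0.168 Mb from Mir34a (chr4:150068454-150068555). Eno2 (ENSMUSG00000004267) is at chr6:124760053-124769673 on the minus strand and Eno3 (ENSMUSG00000060600) at chr11:70657202-70662513 on the plus strand. Eno1b (ENSMUSG00000059040) is annotated as protein coding. The transcripts of Eno1, Eno2 and Eno3 with the longest coding part have 12 exons each, against 2 in that of Eno1b. A further copy, Gm4735 (ENSMUSG00000064193; chr2:80837141-80838442, plus strand), is a processed pseudogene with 1 exon; it was added to the set after its values were seen.

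The coding sequences show which of these genes can be told apart by a read. The stretch below, coding bases 667 to 816 in each gene, is the 150-base stretch of Eno1 with the most differences from Eno1b. Capitals in Eno1 mark the 4 bases at which Eno1b has another base, and capitals in the other lines mark bases that differ from Eno1, of which there are 2 in Gm4735, 37 in Eno2 and 34 in Eno3.
Eno1: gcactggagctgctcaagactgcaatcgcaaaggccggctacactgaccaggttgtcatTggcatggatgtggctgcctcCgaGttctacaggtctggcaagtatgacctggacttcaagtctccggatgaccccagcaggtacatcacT
Gm4735: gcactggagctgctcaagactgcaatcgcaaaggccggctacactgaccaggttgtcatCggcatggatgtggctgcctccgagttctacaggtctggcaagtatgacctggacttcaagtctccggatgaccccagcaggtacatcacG
Eno2: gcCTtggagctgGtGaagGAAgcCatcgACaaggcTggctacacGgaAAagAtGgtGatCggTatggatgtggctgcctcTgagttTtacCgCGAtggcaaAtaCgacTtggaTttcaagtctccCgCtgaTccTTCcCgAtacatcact
Eno3: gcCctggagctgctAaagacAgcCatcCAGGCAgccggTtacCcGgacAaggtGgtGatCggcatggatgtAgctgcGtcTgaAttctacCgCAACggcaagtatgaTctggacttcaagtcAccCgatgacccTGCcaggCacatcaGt

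Over the whole coding part of 1302 bases, stop codon left out, Eno1 and Eno1b differed at 8 bases, an identity of 99.4%. Eno1 and Gm4735 differed at 5 bases (99.6%), and Eno1b and Gm4735 at 3 (99.8%). Eno2 and Eno3 were far from Eno1, at 75.6% and 77.0% identity of the aligned coding bases. Of the 1978 windows of 50 bases in the Eno1 transcript, 72.2% also occurred without mismatch in a transcript of another gene. Eno1b held 70.5% of the windows in its annotated transcripts, Gm4735 held 52.8%, and Eno2 and Eno3 held none. With windows of 100 bases, 54.2% of those of Eno1 were found in the longest-coding Eno1b transcript. In the opposite direction, 84.5% of the 50-base windows of Eno1b and 96.0% of those of Gm4735 occurred in other genes. In all, 9 other genes held at least 1 window of Eno1, and 3 of them have a value in the table: Eno1b, Gm4735 and Gm13685, whose value was never above 5. The other 6 were not analysed here. The read length is not given in the sources used here, so the windows describe the sequences and not the reads. The mice were FvB and the reference sequence is that of C57BL/6J.

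**Figure D1:**
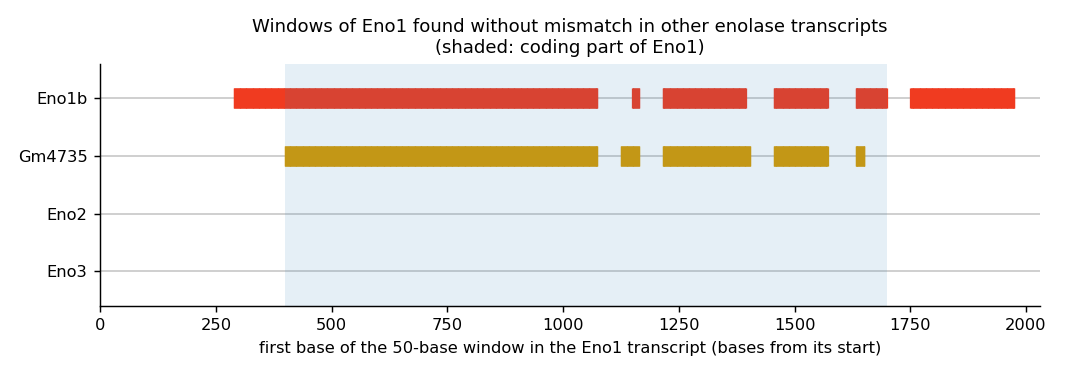
Each mark is a 50-base window of the Eno1 transcript, placed by its first base (x axis, bases from the start of the transcript), that occurs without mismatch in a transcript of the gene named on the y axis; the shaded span is the coding part of Eno1. Eno1b and Gm4735 hold 70.5% and 52.8% of the 1978 windows, and Eno2 and Eno3 hold none.

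The values are expression scores normalized by the authors, not read counts, and their depth is unknown. Eno1 and Eno1b had lengths of 2027 and 1791 bases in the transcripts compared, and levels of different genes are not ranked here, since it is not given whether the values are per length. As a check of the labels, Trp53, the gene of p53, lay at 504 to 924 in double deficient and 401 to 598 in p53 deficient tumours, against 3466 to 5120 in miR-34a deficient and 4126 to 4512 in wt tumours. Mir34a has no value of its own in these data. All 10 epithelial markers were present, with Epcam between 60419 and 144005, although Cdx2 did not exceed 325. Y-linked genes, averaged on the log2 scale, were at 0.25 to 0.79 in double deficient and 3.73 to 6.98 in p53 deficient libraries. They were at 0 to 5.28 in miR-34a deficient and 0 to 4.35 in wt libraries. The double and p53 deficient groups did not overlap, so between them this level cannot be told apart from miR-34a loss. Results with this level as a covariate are given where they differ. The labels do not say that the 3 libraries of a genotype came from different mice, or whether tumours were pooled; p-values reflect the variation among these libraries, which may be technical.

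Eno1 was higher in all 6 libraries lacking miR-34a than in any of the 6 libraries that retain it. Its values were 53416, 58471 and 58185 in miR-34a deficient tumours, against 32469, 32296 and 24964 in wt tumours. In double deficient tumours they were 62728, 63730 and 66176, against 31544, 39717 and 36424 in p53 deficient tumours. The order of the means was double deficient, miR-34a deficient, p53 deficient and wt, and the last pair overlapped in range. On the log2 scale of the value plus 1, the difference was 0.93 ± 0.13 (SE, n = 3 each) in miR-34a deficient against wt and 0.85 ± 0.13 in double against p53 deficient tumours. These values belong to the contrast by which the genes were chosen, and no test is given for them.

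Eno1b, which lies on chromosome 18 and so away from Mir34a, ran the opposite way. Its values were 85, 135 and 71 in miR-34a deficient tumours, against 19469, 16386 and 14333 in wt tumours. In double deficient tumours they were 126, 225 and 165, against 19687, 28557 and 26524 in p53 deficient tumours. The groups lay far apart with no value between 225 and 14333. The log2 differences were -7.46 ± 0.27 and -7.19 ± 0.27, again given as a description. Of the 21322 genes averaging 1 or more, 0.652% had no overlap between the 6 libraries lacking miR-34a and the 6 with it, 0.45% higher and 0.202% lower, and Eno1 and Eno1b are among them by choice.

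Gm4735, the processed pseudogene, showed the same split as Eno1b. Its values were 154, 53 and 20 in miR-34a deficient and 9772, 10753 and 3965 in wt tumours. They were 86, 208 and 148 in double deficient and 6583, 15850 and 12334 in p53 deficient tumours. The log2 differences were -7.06 ± 0.66 in miR-34a deficient against wt and -6.29 ± 0.66 in double against p53 deficient tumours. As its sequence is shared with Eno1 and Eno1b at nearly every window, the value of each of the 3 genes is uncertain by itself.

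Added together, the copies differed far less than each did alone. Eno1 and Eno1b summed to 53501, 58606 and 58256 in miR-34a deficient and to 51938, 48682 and 39297 in wt tumours. The sum was 62854, 63955 and 66341 in double deficient and 51231, 68274 and 62948 in p53 deficient tumours. The first pair did not overlap, by a margin of 51938 to 53501, and the second did. The log2 difference of the sum was 0.29 ± 0.14 in miR-34a deficient against wt and 0.09 ± 0.14 in double against p53 deficient tumours.

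With Gm4735 added as well, both pairs overlapped. The sum of the 3 genes was 53655, 58659 and 58276 in miR-34a deficient tumours, against 61710, 59435 and 43262 in wt tumours. It was 62940, 64163 and 66489 in double deficient tumours, against 57814, 84124 and 75282 in p53 deficient tumours. The log2 differences were 0.07 ± 0.16 and -0.15 ± 0.16. The difference of means, miR-34a deficient minus wt, was 26781 for Eno1, -16632 for Eno1b and -8088 for Gm4735. The difference of means, double minus p53 deficient, was 28316 for Eno1, -24751 for Eno1b and -11442 for Gm4735. How reads of the 3 genes were divided in making the table is not given in the sources used here, and its part in these values was not tested.

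**Figure D2:**
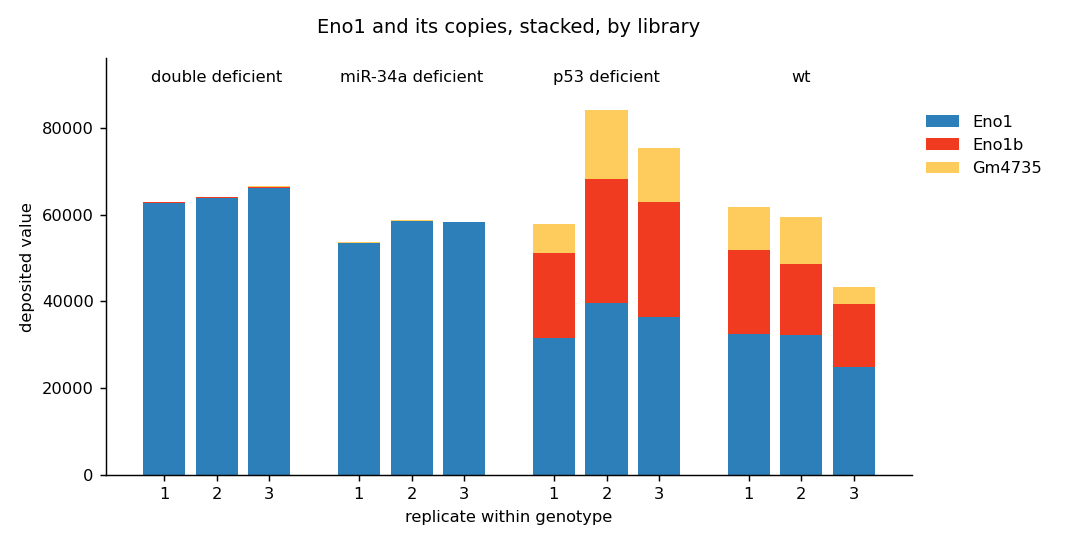
Deposited values of Eno1, Eno1b and Gm4735 stacked for each of the 12 libraries (x axis, replicate within genotype; y axis, deposited value). Libraries lacking miR-34a hold almost only Eno1, and the total runs from 53655 to 66489 in them, against 43262 to 84124 in the others.

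As a share of Eno1 and Eno1b together, Eno1b made up 0.122% to 0.230% in miR-34a deficient and 33.7% to 37.5% in wt tumours. It made up 0.200% to 0.352% in double deficient and 38.4% to 42.1% in p53 deficient tumours. The shares were narrow within each genotype. Between the genotypes that retain miR-34a, the share averaged 40.8% ± 2.06 in p53 deficient and 35.9% ± 1.98 in wt tumours (SD, n = 3 each), 4.92 percentage points apart and without overlap. The two-sided exact permutation test gave p = 0.1, the smallest value that 3 libraries against 3 allow. The share of Gm4735 in the 3 genes averaged 15.5% in p53 deficient and 14.4% in wt tumours, with overlap (exact permutation p = 0.6, two-sided). The share of Eno1 in the 3 genes overlapped as well, at 47.2% to 54.6% in p53 deficient and 52.6% to 57.7% in wt tumours.

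The other genes near Mir34a were set beside Eno1. Of 29 annotated genes within 0.5 Mb of Mir34a, 14 are in the table, Eno1 included. None of the other 13 had values without overlap between the 6 libraries lacking miR-34a and the 6 with it, against 0.652% of all genes. For the 7 of them with a mean value of at least 100, log2 differences ran from -0.20 to 1.20 in miR-34a deficient against wt and from -0.39 to 0.69 in double against p53 deficient tumours. The highest in the first comparison was that of Clstn1, a calsyntenin, at 1.20, against 0.10 in the second. H6pd was at 0.97 and 0.20, beside 0.93 and 0.85 for Eno1, and Tmem201, the lowest in both, at -0.20 and -0.39. The highest in the second was that of Pik3cd, a catalytic subunit of phosphoinositide kinase, at 0.69, against 0.50 in the first, and Spsb1 was at 0.78 and 0.60. Of the 2 genes nearest to Mir34a, both with lower means, Gm13067 was at 1.85 and 2.0, on values of 7 to 47 in libraries lacking miR-34a and 0 to 17 in those with it. Gpr157 was at 1.26 and 0.77, on values of 41 to 89 in libraries lacking miR-34a and 16 to 47 in those with it.

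**Figure D3:**
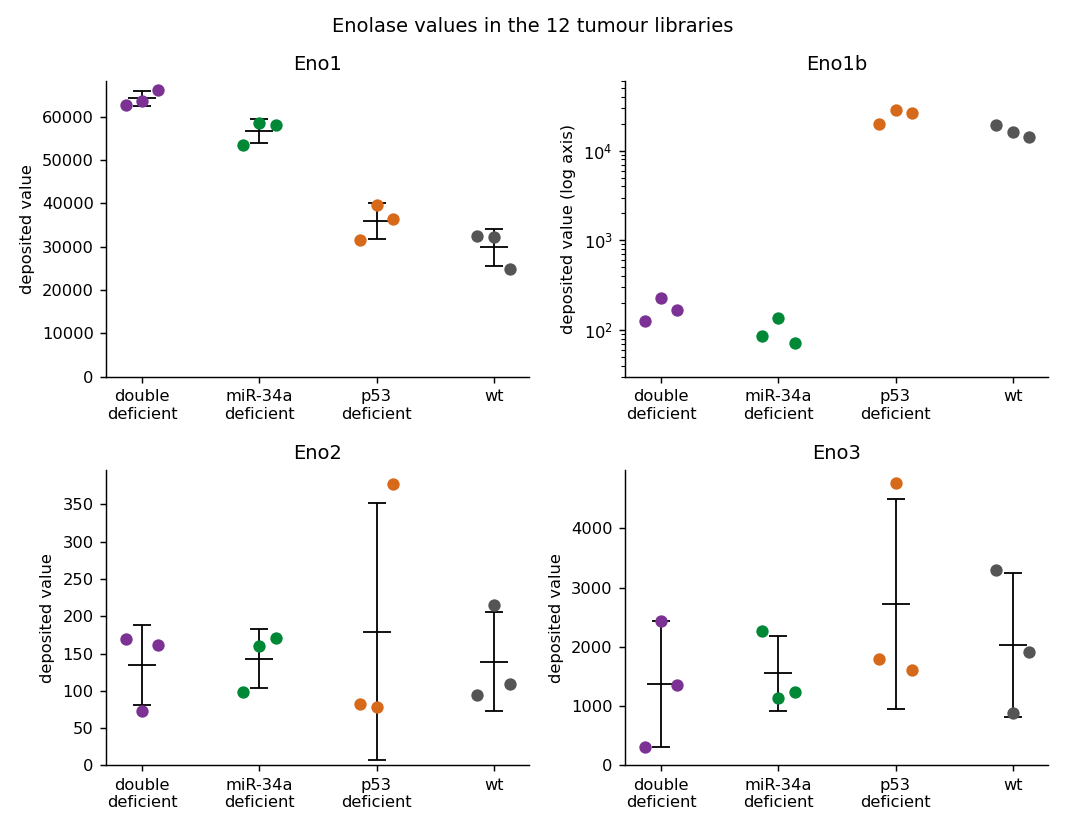
Deposited value of each enolase in every library by genotype (3 points per genotype; for Eno1, Eno2 and Eno3, a bar marks the mean and SD; the axis of Eno1b is logarithmic and has no bars). Eno1 is high and Eno1b low in both genotypes lacking miR-34a, and Eno2 and Eno3 overlap between all genotypes.

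Eno2 and Eno3 share no 50-base window with Eno1, and both overlapped between all genotypes. Eno2 had values of 98, 160 and 171 in miR-34a deficient and of 94, 215 and 109 in wt tumours. Its values were 170, 73 and 162 in double deficient and 82, 78 and 378 in p53 deficient tumours. All 4 genotypes overlapped, and p53 deficient 3 held the highest value. The log2 differences were 0.09 ± 0.59 in miR-34a deficient against wt and -0.09 ± 0.59 in double against p53 deficient tumours.

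Eno3 had values of 2275, 1138 and 1245 in miR-34a deficient and of 3306, 885 and 1910 in wt tumours. Its values were 309, 2444 and 1361 in double deficient and 1793, 4768 and 1614 in p53 deficient tumours. Every pair of genotypes overlapped, and within double deficient tumours the highest value was several times the lowest. The log2 differences were -0.26 ± 0.72 in miR-34a deficient against wt and -1.25 ± 0.72 in double against p53 deficient tumours, with no test as above. Eno4, an enolase-like gene known from sperm, stayed between 9 and 33 in all 12 libraries.

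The sequence of the deleted microRNA was compared with the enolase messages, because a seed match is the usual mark of a target. The mature mmu-miR-34a-5p (chr4:150068473-150068494, plus strand, GRCm38.p6, from RefSeq) is shown 5′ to 3′ with its seed, bases 2 to 8, in capitals, and below it the stretch of the Eno3 transcript around its match to the seed, in capitals.
mmu-miR-34a-5p: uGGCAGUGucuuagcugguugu
Eno3 site: cagaaataaaCACTGCCAaaccaga
The 3′ untranslated regions of the transcripts used were searched on the sense strand for CACTGCC and for its extension CACTGCCA. Eno3 held 1 match to the longer motif in its 81 bases, and Eno1, Eno1b and Eno2 held none of either in 324, 351 and 1238 bases. Among 20701 genes with such a region, 13.0% held the shorter motif and 4.50% the longer. The match is a description of the sequence. The Eno3 values above overlapped between all genotypes, and an effect of miR-34a on them was not tested.

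Loss of p53 did not change any enolase past the threshold, an adjusted p under 0.05 by limma with Benjamini-Hochberg adjustment over all 21323 values tested (21322 genes and the sum of Eno1 and Eno1b). This contrast played no part in the choice of the genes. In p53 deficient against wt tumours, Eno1 was at 0.27 ± 0.13 on the log2 scale (adjusted p = 0.362) and Eno1b at 0.57 ± 0.27 (adjusted p = 0.343). Their sum was at 0.38 ± 0.14, a ratio of 1.30 (adjusted p = 0.229, higher in 2 of 3 libraries than in any wt library). Eno2 was at 0.05 ± 0.59 and Eno3 at 0.43 ± 0.72 (adjusted p = 0.980 and 0.815). In this comparison 0.0234% of genes passed, 0.00469% higher and 0.0188% lower.

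In double against miR-34a deficient tumours Eno1 was at 0.18 ± 0.13 (adjusted p = 0.501). The values given above did not overlap, but how many of all genes do so with 3 libraries against 3 was not computed. Eno1b was at 0.83 ± 0.27 (adjusted p = 0.144), on values between 71 and 225. Eno2 was at -0.14 ± 0.59 and Eno3 at -0.55 ± 0.72 (adjusted p = 0.931 and 0.731). Here 0.905% of genes passed, 0.286% higher and 0.619% lower. The 95% interval of the sum of Eno1 and Eno1b ran from -0.12 to 0.49 around 0.18. After quantile normalization the sum was at 0.50 and Eno1 at 0.48 (adjusted p = 0.0923 and 0.0821), and with the library name code as a covariate at 0.10 and 0.11.

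Averaged over both miR-34a states, 6 libraries against 6, p53 loss went with a log2 difference of 0.22 ± 0.09 for Eno1 (adjusted p = 0.172) and of 0.70 ± 0.19 for Eno1b (adjusted p = 0.0573). The sum of Eno1 and Eno1b was at 0.28 ± 0.10 (adjusted p = 0.112), and that of Eno1, Eno1b and Gm4735 at 0.29 ± 0.12 (adjusted p = 0.155). Eno2 and Eno3 were at -0.05 ± 0.42 and -0.06 ± 0.51 (adjusted p = 0.960 and 0.959). Of all genes 5.05% passed here, 2.21% higher and 2.84% lower, and 23.8% had an unadjusted p under 0.05. Of the genes passing 43.8% were higher; after quantile normalization 57.6% of the genes passing were higher. Under that normalization the sum of Eno1 and Eno1b passed, at 0.44 (adjusted p = 0.0277), as did Eno1 at 0.36 and Eno1b at 0.81 (adjusted p = 0.0417 and 0.0445). Eno1b also passed without double deficient 1, miR-34a deficient 2 or p53 deficient 1, with adjusted p = 0.0411, 0.0478 and 0.0468, and with the replicate number as a block, at 0.70 (adjusted p = 0.0466). The averaged difference of Eno1b joins 0.57 on values of 14333 to 28557 with 0.83 on values of 71 to 225, where the gene is nearly absent. The signs of Eno2 and Eno3 turned in this comparison when single libraries were left out. Eno2 and Eno3 overlapped between the 6 libraries lacking p53 and the 6 with it, where 2.84% of all genes did not. For Eno1 and Eno1b an overlap was fixed in advance, since libraries with and without miR-34a lie on both sides.

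**Figure D4:**
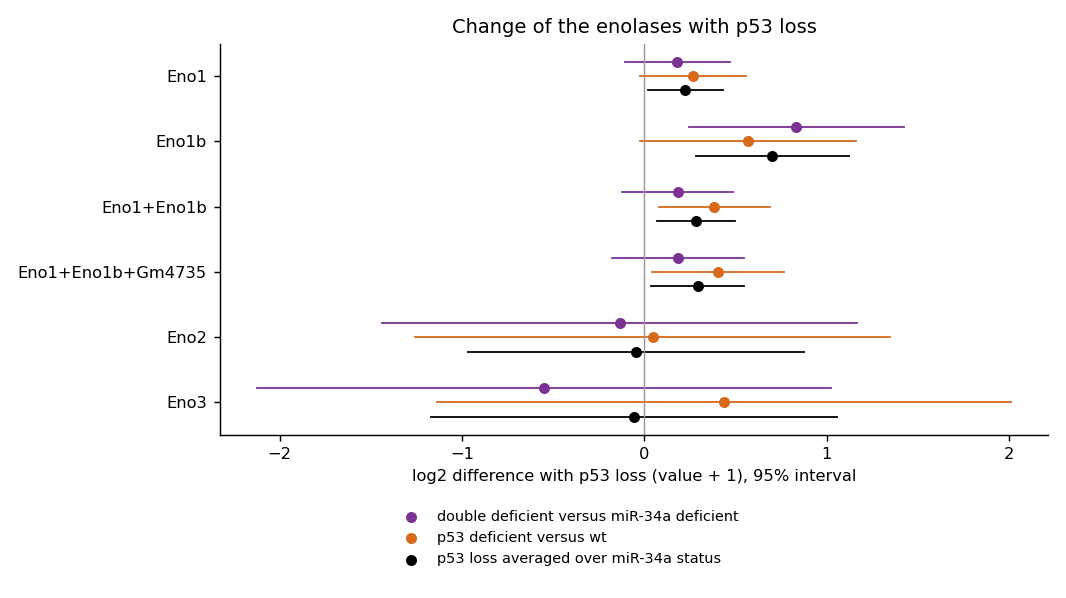
Log2 difference with p53 loss (x axis, value plus 1) and its 95% interval for each enolase and for the 2 sums (y axis), in double against miR-34a deficient tumours, in p53 deficient against wt tumours and averaged over both. Points of Eno1, Eno1b and the sums lie above 0, and those of Eno2 and Eno3 on either side of it with wide intervals.

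The effect of p53 loss on each enolase did not differ past the threshold between tumours with and without miR-34a. The difference of the 2 p53 effects was -0.09 ± 0.19 for Eno1, 0.26 ± 0.38 for Eno1b, -0.20 ± 0.20 for their sum, -0.18 ± 0.84 for Eno2 and -0.98 ± 1.02 for Eno3 (adjusted p between 0.843 and 0.980). After quantile normalization Eno1 was at 0.25 and the sum at 0.10, the opposite sign. Among all genes 0.0234% passed this test and 7.89% had an unadjusted p under 0.05. In the glycolysis list described next none passed and 3 had an unadjusted p under 0.05: Slc16a3 (1.65 ± 0.55), Hk2 (-1.15 ± 0.43) and Gapdh (1.04 ± 0.47), with adjusted p = 0.517, 0.567 and 0.626.

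Among the remaining genes of the pathway several rose with p53 loss. Of 28 genes of glycolysis, glucose entry and lactate release, fixed as a list with earlier results of these data known, 9 rose, none fell and 19 did not pass when averaged over miR-34a status, against 2.21% of all genes higher. Their median log2 difference was 0.50, against -0.06 for all genes, and 26 of 28 lay above 0. The largest of the 9 was that of Slc16a3, the lactate exporter MCT4, at 1.62 ± 0.28 (adjusted p = 0.0155). Pgk1, the phosphoglycerate kinase, rose by 0.89 ± 0.15 (adjusted p = 0.0146), and Ldha, the lactate dehydrogenase subunit, by 0.61 ± 0.13 (adjusted p = 0.0277). Pgam1, the mutase that makes the substrate of enolase, rose by 0.48 ± 0.12 and Pkm, the pyruvate kinase that uses its product, by 0.49 ± 0.11 (adjusted p = 0.0477 and 0.0306). Tpi1, Aldoc, Pfkm and Gapdh rose by 0.48, 0.92, 0.70 and 0.95. The 0.28 of the sum of Eno1 and Eno1b lay below that of each of these 9 genes; whether it differs from them was not tested.

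Pgk1, which had the smallest p-value of the list when averaged over miR-34a status, is given by library. It had 26652, 32630 and 39272 in double deficient against 17850, 17213 and 17513 in miR-34a deficient tumours, and 26054, 42930 and 46398 in p53 deficient against 22702, 19104 and 18450 in wt tumours. Neither pair overlapped. Slc16a3 had 4370, 5973 and 7788 in double deficient against 1069, 971 and 1223 in miR-34a deficient tumours, and 1784, 1850 and 5007 in p53 deficient against 1371, 2212 and 1048 in wt tumours, where the second pair overlapped. In p53 deficient against wt tumours Ldha, Tpi1, Pgam1, Gapdh and Aldoc overlapped as well, and Pkm and Pfkm did not. None of these genes overlapped in double against miR-34a deficient tumours. Several of these genes have copies too: 68.0% of the 50-base windows of Pgk1, 90.4% of those of Gapdh, 41.5% of those of Pgam1 and 34.4% of those of Pkm occur in other genes, against none for Slc16a3, Aldoc and Pfkm, and 7.51% and 16.6% for Tpi1 and Ldha. The values of Pgk1, Gapdh, Pgam1 and Pkm are uncertain for that reason.

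The count of 9 moved when single libraries were left out. It was 0 without double deficient 3, 14 without p53 deficient 1, 3 without double deficient 2, miR-34a deficient 3 or wt 2, and 2 without miR-34a deficient 1, miR-34a deficient 2 or p53 deficient 3. It was 2 with the direction of variation that is missing from the deposited values as a covariate, a direction with 47.2% of its squared weights on double deficient 3 and 16.5% on double deficient 2. In the single comparisons 1 of the 28 rose in double against miR-34a deficient tumours, which was Slc16a3 at 2.44 ± 0.39 (adjusted p = 0.0194), beside 0.286% of all genes; the count was 0 without double deficient 3, miR-34a deficient 1 or miR-34a deficient 2, 2 without double deficient 1, wt 1 or wt 3, and 3 without p53 deficient 1. None passed in p53 deficient against wt tumours, where 13 had an unadjusted p under 0.05 beside 15.3% of all genes, with Pgk1 (0.90 ± 0.21), Hk2 (1.07 ± 0.31) and Pfkp (0.94 ± 0.27) the closest; 2 passed without p53 deficient 1.

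With miR-34a loss the list stood near 0. In miR-34a deficient against wt tumours the median was -0.10, against 0.03 for all genes, with none of 28 passing and 1 at an unadjusted p under 0.05, the lactate dehydrogenase gene Ldhb at -1.26 ± 0.48 (adjusted p = 0.766); 6.09% of all genes had such a p. The lactate transporter gene Slc16a1 and the phosphofructokinase gene Pfkm came next, at -0.41 ± 0.24 and -0.40 ± 0.24. In double against p53 deficient tumours the median was 0.03, against 0.05 for all genes, and none passed, with 5 at an unadjusted p under 0.05 (15.1% of all genes) and Ldhb again the closest at -1.66 ± 0.48 (adjusted p = 0.144), before Slc16a3 at 1.21 ± 0.39 and Pfkp at -0.77 ± 0.27; 1 passed without p53 deficient 1. Of all genes 0.0375% passed in the first comparison, 0.0141% higher, and 0.605% in the second.

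**Figure D5:**
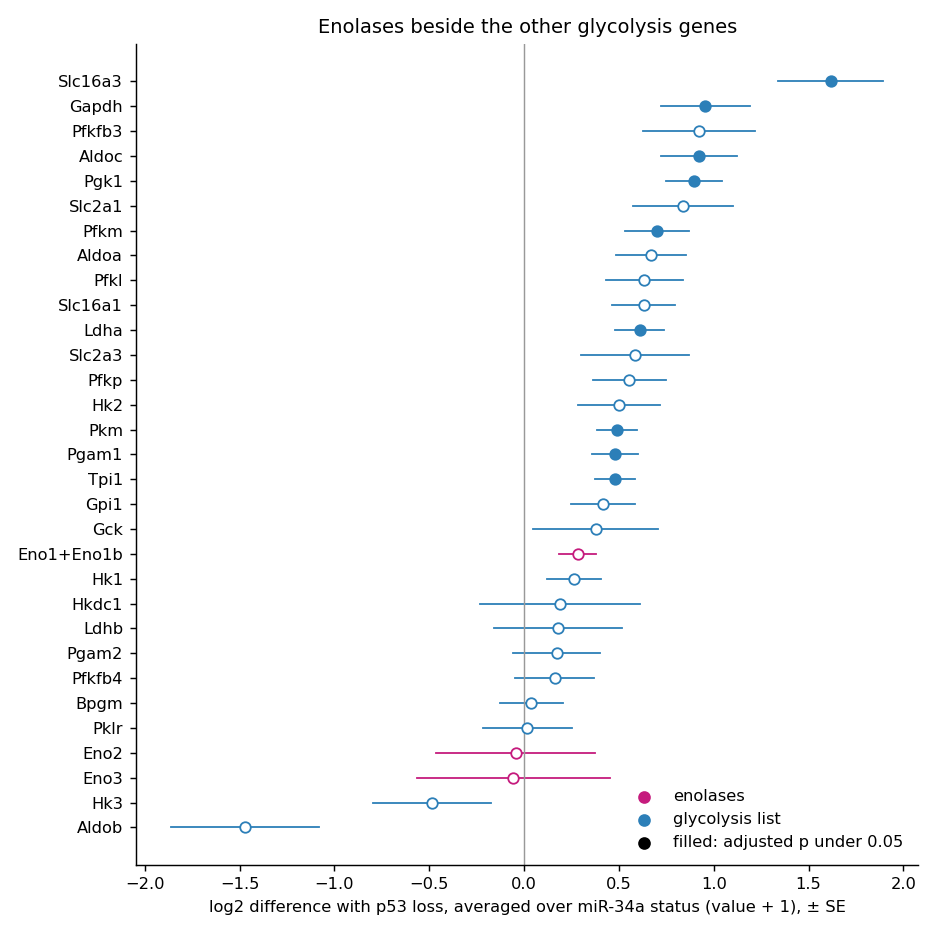
Log2 difference with p53 loss averaged over miR-34a status (x axis, value plus 1, ± SE) for the 28 listed glycolysis genes and for Eno2, Eno3 and the sum of Eno1 and Eno1b (y axis, ordered by size); filled points have an adjusted p under 0.05. The 9 filled genes lie between 0.48 and 1.62, and the sum of Eno1 and Eno1b at 0.28.

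Markers of the cells in which Eno2 and Eno3 are usually found were read in the same libraries. In a bulk tumour, fewer cells of a type and less RNA per cell cannot be told apart. The summed value of 12 enteric neuron markers ran from 873 to 1958 in double deficient, 1350 to 2635 in miR-34a deficient, 676 to 2396 in p53 deficient and 964 to 1300 in wt tumours, and the neuron gene Hand2 was at 0 throughout. Enteroendocrine markers, 13 in all, summed to between 8595 and 412894, led by the peptide hormone gene Pyy. The 7 striated muscle markers in the table summed to between 227 and 367 in all libraries, the highest being Tnni2 at 84 to 295, while the muscle creatine kinase Ckm stayed between 5 and 18. Summed markers of smooth muscle, 8 in all, were at 3051 to 5354, 3031 to 4525, 2508 to 3731 and 2219 to 2964 in double, miR-34a and p53 deficient and wt tumours. Endothelial markers, 6 in all, summed to 3972 to 5891 in double deficient against 1820 to 2793 in p53 deficient tumours, and to 2775 to 3305 in miR-34a deficient against 1208 to 2791 in wt tumours. The 10 epithelial markers summed to 565525 to 634818 in double deficient against 682051 to 927505 in p53 deficient tumours, and to 508343 to 622580 in miR-34a deficient against 574755 to 865053 in wt tumours. Leukocyte markers, 6 in all, summed to 3099 to 7854 in double deficient against 2264 to 2836 in p53 deficient tumours, and to 4115 to 5905 in miR-34a deficient against 2589 to 5576 in wt tumours. The endothelial, epithelial and leukocyte sums did not overlap in double against p53 deficient tumours. In miR-34a deficient against wt tumours the smooth muscle and enteric neuron sums did not overlap. In double against miR-34a deficient tumours the endothelial sums did not, and in p53 deficient against wt tumours every sum overlapped. No share of all genes without overlap was computed for groups of 3 libraries. The part of these cells in the enolase values was not tested.

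The genes whose pattern over the 12 libraries was most like that of each enolase were found by Pearson correlation of log2 values among 12936 genes with a mean of at least 100. For Eno1 and Eno1b the libraries form 2 clusters by miR-34a state, so no coefficient is given. The genes most like Eno1b were Gm4735, Uxs1, Cenph, Unc119 and Tnip3. Of these Gm4735 alone holds Eno1 sequence. Cenph, a centromere gene, was at 1884 to 2138 in double deficient against 3527 to 4452 in p53 deficient tumours, and at 1586 to 1653 in miR-34a deficient against 2204 to 4247 in wt tumours. The genes most like Eno1 were the ribosomal protein gene Rpl35a, Gabrg3, Plcg2, Plcxd2 and Smtn, which is also on the smooth muscle list. Rpl35a was at 7922 to 8714 in double deficient against 528 to 619 in p53 deficient tumours, and at 4475 to 6149 in miR-34a deficient against 428 to 912 in wt tumours.

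For the other patterns the coefficients are a description over the same 12 libraries, with no test. The sum of Eno1 and Eno1b was most like Zfp628 (r = 0.92), the amino acid transporter gene Slc1a5 (0.90), Atp13a1 (0.89), Ncdn (0.87) and Egfl6 (0.85). Eno2 was most like the phosphatase gene Dusp7 (0.90), Baz1a (0.89), Rassf6 (0.89), Sfswap (0.87) and Chka (0.86). Eno3 was most like the mitochondrial peptidase gene Mipep (0.96), the lipid phosphatase gene Mtm1 (0.93), Tinag (0.93), Sh3rf2 (0.91) and the unconventional myosin gene Myo6 (0.91). None of the genes named for these patterns is a marker on the neuron, enteroendocrine or muscle lists. Many of those markers, such as Ckm, Mb, Tubb3 and Pcsk1, lay below the mean of 100 that the search required. They could not have been named, so their absence says nothing about these cells.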

How the data were processed

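Total RNA of colon tumours was isolated with a QIAGEN kit and made into 12 libraries by standard Illumina protocols, per the labels' protocols. The authors deposited score values: normalized expression per gene symbol, rounded to whole numbers, with build mm10 per the submitters' processing notes. The sources used here name neither the aligner, the counting and its handling of reads that map to several places, nor the normalization. Upper quartiles of the columns lie between 1905 and 1982.25, so the values are not raw counts, depth is unknown, and no counting interval can be given.

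The members and lists were chosen with earlier results of these data known. Genes with a mean of at least 1 (21322) were fitted as log2 of the value plus 1 with limma 3.58.1 in R 4.3.3 (trended prior variance, 1 mean per genotype, 8 residual degrees of freedom), with the sum of Eno1 and Eno1b as a further row. The sum with Gm4735 comes from a fit with it in place of the 3 genes, added after the data were examined. Errors are SE, n = 3 libraries per genotype. The procedure was tested on simulated data. Deviations within genotypes span 7 dimensions of 8 (singular values 32.2 for the seventh and 0.179 for the last). Of the squared weights of the missing direction 47.2% lie on double deficient 3. The main fit counts all 8 residual degrees of freedom, so its SEs and p-values may be too small. Alternatives were another pseudocount, other filters, 3 rescalings, each library left out, covariates, a replicate block and fits of 2 genotypes.

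Named genes are the members, their sums, Eno4, Trp53, the listed glycolysis genes that passed or had the 3 smallest p-values in a comparison, and the 5 genes most like each enolase. Clstn1, H6pd, Tmem201, Pik3cd, Spsb1, Gm13067, Gpr157 and Gm13685 were named after their values were seen. Transcripts, coding parts and positions are from GENCODE M21 (GRCm38), and for each gene the transcript with the longest coding part was used. Protein identities were not computed.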

Additional observations from a re-analysis of the deposited data

How the results depend on the processing

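The 24 tested enolase results kept direction and side of the threshold in 527 of 568 alternative fits, passed only there in 8, all averaged over miR-34a status, and changed sign in 33 without passing. With quantile normalization those that passed were Eno1 (0.36), Eno1b (0.81), their sum (0.44) and the sum with Gm4735 (0.51), with the replicate block Eno1b (0.70, adjusted p = 0.0466), and the other 3 left out a library, over which Eno1b ranged from 0.59 to 0.83. The cause was not tested. In double against p53 deficient tumours quantile normalization put Eno1 at 1.10, its sum with Eno1b at 0.33 and the sum with Gm4735 at 0.056, and the Y-linked covariate put Eno2 at 1.04.

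Sign changes with quantile normalization were those of Eno1 (0.25), its sum with Eno1b (0.10) and the sum with Gm4735 (0.011) in the difference of the p53 effects, and of Eno2 in double against miR-34a deficient (0.095) and averaged (0.16). With the Y-linked covariate Eno2 was at -0.63 in p53 deficient against wt, 0.38 in double against miR-34a deficient and 1.01 in the difference. Without the 2 libraries of the other name code, averaged values were 0.0065 for Eno2 and 0.20 for Eno3. Leaving out 1 library gave Eno2 -0.70 to 0.44 in p53 deficient against wt, -0.39 to 0.25 in double against miR-34a deficient, -0.42 to 0.15 averaged and -0.57 to 0.56 in the difference. It gave Eno3 -0.067 to 0.88, -1.19 to 0.30 and -0.38 to 0.37 in the first 3 of these, and Eno1 -0.18 to 0.038 in the difference.

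Counts of changed genes follow for p53 deficient against wt, double against miR-34a deficient, p53 loss averaged, the difference of the p53 effects, miR-34a deficient against wt, and double against p53 deficient. They were 5, 193, 1076, 5, 8 and 129. Leaving out 1 library gave 1 to 88, 23 to 246, 71 to 1336, 2 to 10, 4 to 12 and 27 to 294; for the glycolysis list it gave 0 to 2, 0 to 3, 0 to 14, 0 in all, 0 in all and 0 to 1. The Y-linked covariate gave 1, 73, 677, 1, 5 and 7. The missing direction as a covariate gave 2, 57, 321, 2, 5 and 47, with 2 glycolysis genes averaged over miR-34a status. In p53 deficient against wt, the count was 3 with a pseudocount of 10, 2 with no filter, 2 with the replicate block, 1 with only 2 genotypes in the fit and 8 without the 2 libraries of the other name code. That last setting was chosen after seeing the data; it also gave 79 in double against miR-34a deficient (0 glycolysis genes), 508 averaged, and 1 glycolysis gene in double against p53 deficient. The name code as a covariate gave 86 in double against miR-34a deficient, with 0 glycolysis genes. There quantile normalization gave 2 glycolysis genes and the fit of 2 genotypes 3; the fit of 2 genotypes also gave 12 changed genes in double against p53 deficient. Quantile normalization gave 5 in miR-34a deficient against wt, and the replicate block 3 for the difference. The numbers were not treated as pairs: 4 of 18 same-numbered pairs correlated above 0.1 and 5 of 12 libraries were closest to their own number; the block moved no other count by more than 1.5 times. With quantile normalization the share of higher genes among those passing was 40% in p53 deficient against wt, 43.5% in double against miR-34a deficient and 20% in miR-34a deficient against wt, beside 20%, 31.6% and 37.5% without it. Depth is unknown, so the precision of low values such as those of Eno2, and of Eno1b where miR-34a is absent, is not known either.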
